A study of Mus musculus with 6 samples.

Results

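The 37 genes described here carry pyruvate into the mitochondrion, run the tricarboxylic acid cycle, exchange malate, aspartate and glutamate across the mitochondrial membrane, or make itaconate from a cycle intermediate. They were listed by name and function, with no level or test in the rule, and all 37 were found by Ensembl gene identifier among the 22962 genes of the table. RNA was sequenced from lavage macrophages of C57BL/6 mice that had received intratracheal saline (replicates 1, 2 and 3) or intratracheal bleomycin, a DNA-damaging drug used to model pulmonary fibrosis (replicates 1, 2 and 5), 2 weeks before collection. Cells from the lavage were left to adhere to plastic, washed and lysed, and no sort is described, so the libraries hold whatever adhered. The labels give no genotype beyond the strain and no age or number of mice per library and do not say whether replicates are separate animals, so each p-value reflects sample-to-sample spread alone, and that spread may be technical.

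Pyruvate enters mitochondria through a 2-subunit carrier and is turned into acetyl-CoA by the pyruvate dehydrogenase complex, which pyruvate dehydrogenase kinases switch off by phosphorylation. The cycle oxidises acetyl-CoA by way of citrate, succinate and malate, and its intermediates are drained for synthesis and refilled from pyruvate, glutamate and aspartate. In activated macrophages the cycle is known for accumulating succinate and for making itaconate, the product of the enzyme encoded by Acod1.

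The libraries held 27654799 to 37147983 reads recovered from the deposited values, and all levels below are normalized read counts, that is reads divided by 1 size factor per library. Genes of the resident alveolar macrophage were present at a summed level of 818919 to 965326 in saline and 509881 to 687972 in bleomycin libraries, with 10 of 15 lower after bleomycin. Chil3 was the largest single part of that sum, at 311298 to 476558 in saline and 179106 to 264167 in bleomycin libraries. Of 15 genes of monocyte-derived macrophages 14 were higher, with sums of 22126 to 28586 against 171279 to 309692. Genes that mark other cell types were detected too: 11 of 11 T cell genes without Cd2, 2 of 2 B cell genes tested, 5 of 10 epithelial, 4 of 9 tested neutrophil, 4 of 7 dendritic cell and 2 of 6 tested fibroblast genes were higher, while Epcam among the epithelial genes and Cd2, itself listed with the T cell genes, were lower. The sums ran from 78.2 to 123 against 407 to 1015 for the T cell genes without Cd2, 16.3 to 22.3 against 84.4 to 1045 for B cell, 5893 to 7001 against 4556 to 4917 for epithelial, 35.3 to 338 against 229 to 877 for fibroblast and 568 to 800.1 against 1095 to 2226 for dendritic cell genes. The neutrophil genes summed to 2670 to 4420 in saline and 6174 to 7324 in bleomycin libraries, with Camp and Mpo at 0 in every saline library. Of the 7 B cell genes listed, 5 were too low to test. A gene this low in saline can enter the test through the bleomycin libraries alone, which favours a call of higher. The share of tested genes called higher therefore carries little weight for such low lists. In such bulk samples fewer cells of a type and less RNA per cell cannot be told apart, and the part of this change in cell makeup in the results below was not tested.

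Got1, which encodes the cytosolic aspartate transaminase, was the 1 gene of the 37 that passed the test between the groups, and it was higher after bleomycin. Its normalized counts were 883, 772 and 829 after saline (replicates 1, 2 and 3, the order kept below) and 1833, 2121 and 2364 after bleomycin (replicates 1, 2 and 5). Every bleomycin library was above every saline library, and bleomycin replicate 1 was the lowest of its group, as it was for the summed monocyte-derived macrophage genes. The group means were 828 ± 55.0 and 2106 ± 266 (SD, n = 3 each), a log2 difference of 1.34 ± 0.13 (SE; 95% interval 1.04 to 1.64) on the log2(value + 1) scale, or 2.53-fold (2.06 to 3.12; adjusted p = 0.000463, limma with Benjamini-Hochberg adjustment over the 13512 genes tested). It passed in all 18 other settings, and leaving out each library in turn gave log2 differences of 1.25 to 1.44. Of all genes tested, 13.7% passed the threshold of 0.05, 9.76% as higher and 3.9% as lower, so 1 of 37 higher and 0 of 37 lower is a smaller share than the background. By edgeR's quasi-likelihood test and by DESeq2, both on recovered reads, 1 of the 37 also passed.

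The other 36 genes did not pass, and apart from Acod1 their differences were small. All 37 had been tested, none being lost to the filter on low values. The 95% interval of the difference lay within 2-fold in either direction for 35 of the 37, against 67.1% of all genes tested, and within 1.5-fold for 27. That 67.1% covers low genes too and was not matched to the levels of the 37. For the 1.5-fold range no share over all genes was computed. The exceptions to the 2-fold range were Got1 and Acod1. The direction leaned downward: 26 of the 37 had a log2 difference below 0 (70.3%, against 51.3% of all genes tested), with a median of -0.14 against -0.01. At an unadjusted p under 0.05, 7 were lower (Pdha1, Cs, Idh3a, Fh1, Idh2, Me2 and Glud1), where 10.3% of all genes tested were lower by the same measure, and Got1 alone was higher. Groups did not overlap for 9 genes with lower bleomycin values (the same without Idh2, and with Idh3g, Dlst and Slc25a10) and for 2 with higher ones (Got1 and Sdhb), while 13.6% and 17.2% of all genes tested separated that way. Within the groups, bleomycin replicate 1 had the highest bleomycin value in 24 of the 37 genes, where it did so in 38.8% of all genes tested. Saline replicate 3 had the highest saline value in 21 of the 37, where it did so in 33.6% of all genes tested.

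**Figure D1:**
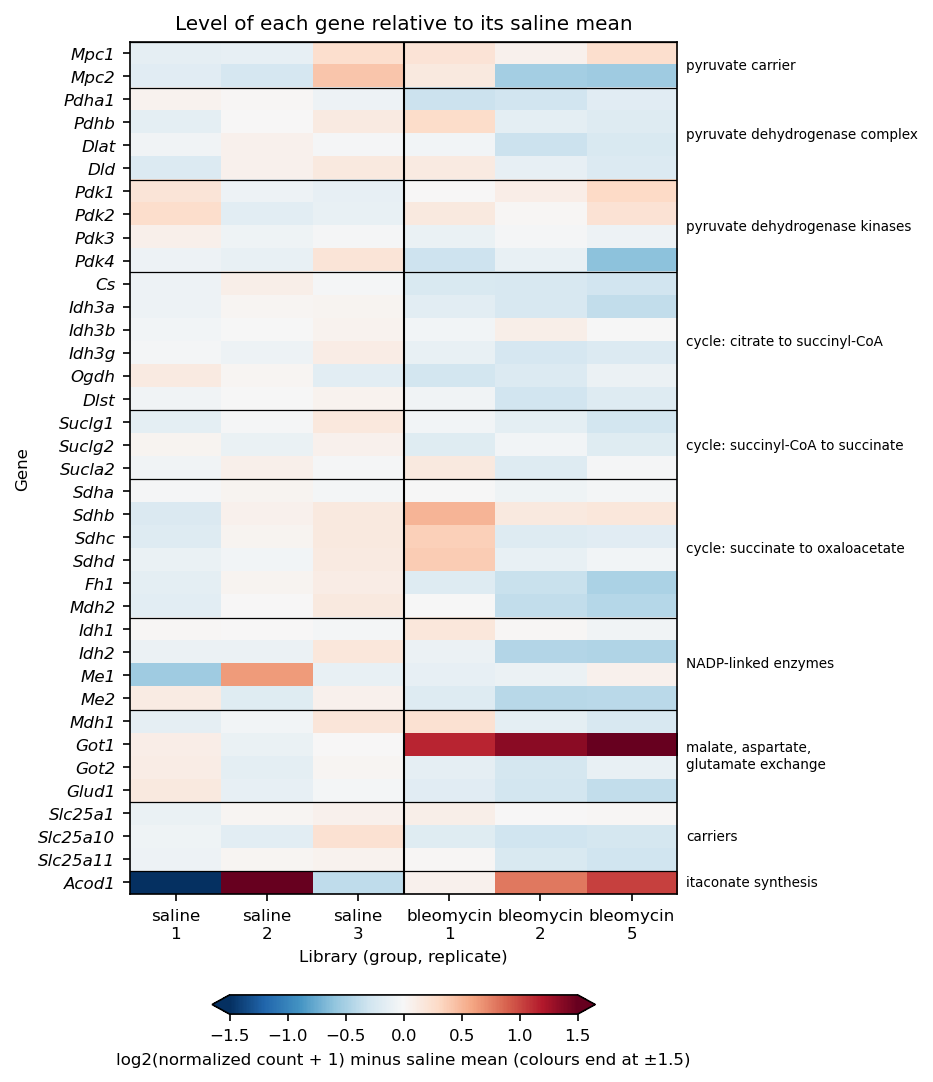
Level of each of the 37 genes (rows, grouped by role) in each of the 6 libraries (columns), as log2(normalized count + 1) minus the mean of the 3 saline libraries. Got1 is high in all 3 bleomycin libraries, Acod1 ranges widely among the saline libraries, and most other rows stay close to their saline mean.

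**Figure D2:**
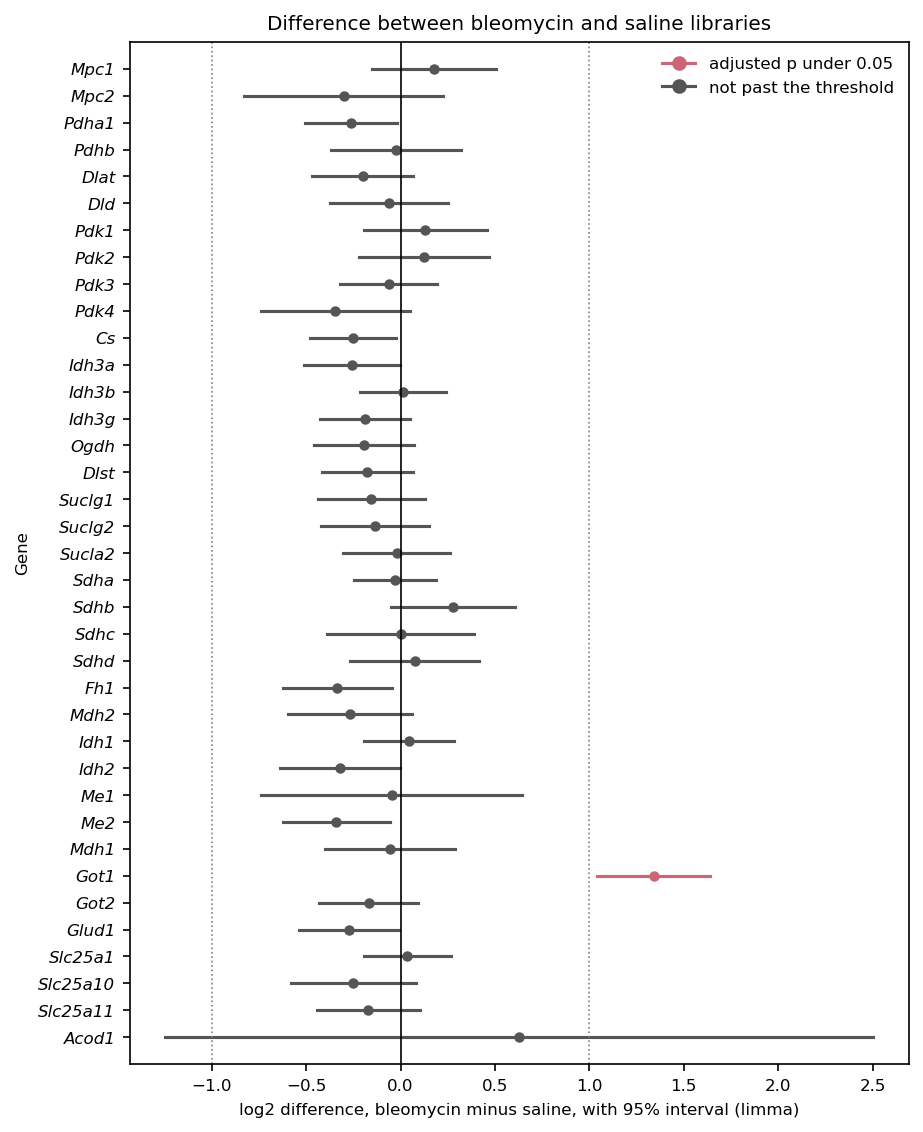
Log2 difference between bleomycin and saline libraries (x axis) with its 95% interval from limma for each gene (y axis), with dotted lines at 2-fold lower and 2-fold higher. The Got1 interval (1.04 to 1.64) lies beyond 2-fold, the Acod1 interval (-1.246 to 2.505) spans both lines, and the other 35 lie between them.

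Got1 lies on chromosome 19 (43499752 to 43524605, minus strand, GRCm38; gene ENSMUSG00000025190), and no other annotated exon overlaps its exons. The 250 bases before its start are shown because it is the gene that moved; they are the RefSeq sequence of GRCm38.p6, chr19:43524606-43524855, read on the minus strand, and the capitals mark a match to TGATGNAA, the composite element bound by ATF4 with C/EBP factors in amino acid stress responses, here on the opposite strand at 102 to 95 bases before the start.
Got1: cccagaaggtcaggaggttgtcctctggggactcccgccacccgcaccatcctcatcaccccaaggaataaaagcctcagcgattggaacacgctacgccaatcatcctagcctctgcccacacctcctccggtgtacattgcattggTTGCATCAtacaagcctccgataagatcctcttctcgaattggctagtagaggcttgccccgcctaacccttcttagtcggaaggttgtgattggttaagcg
The 250 bases before the start were searched on both strands for 6 motifs, for 34 of the 37 genes that had one and for 32851 promoters in all. TGATGNAA stood in 3.45% of all promoters and, among the 34 genes, in Got1 alone, so 1 of 34 is close to the share over all promoters. The 34 are counted as genes with a match in any of their promoters, whereas the percentages count promoters. The E-box CACGTG stood in Ogdh, Pdk2 and Slc25a1 (6.02% of all), the NRF1 core GCATGCGC in Glud1, Ogdh and Sdhb (2.26%), and GAAANNGAA, a form of the interferon factor site, in Suclg1 and Suclg2 (7.13%). None of the 34 held TCAAGGTCA, a site of the ERR nuclear receptors (0.387%), or GGGANTTTC, a form of the NF-kB site (0.941%). A match describes letters in this window and no factor's binding was measured.

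Both transaminases interconvert aspartate and glutamate with their keto acids, Got1 in the cytosol and Got2 in mitochondria, and together with the malate dehydrogenases they form the malate-aspartate shuttle. Got2 did not pass. It had 2275, 1906 and 2159 after saline and 1914, 1762 and 1952 after bleomycin, with overlapping groups and a log2 difference of -0.17 ± 0.11 (SE; adjusted p = 0.425, limma). Per kilobase of exon, Got1 made up 42.4%, 43.5% and 42.2% of the summed Got1 and Got2 level after saline and 64.5%, 69.6% and 69.7% after bleomycin, a mean of 42.7% ± 0.70 against 67.9% ± 2.95 (SD, n = 3 each). Got1 was thus the lower of the pair per kilobase of exon in all 3 saline libraries and the higher in all 3 bleomycin libraries. The level of the share depends on the length used: per kilobase of coding sequence it was 29.0% and 53.7% on average, and 49.9% in bleomycin replicate 1. The gain of the share was 25.2 points by exon length and 24.8 points by coding length. Got2 exons overlap those of Gm45760 on the opposite strand, and since the strand setting of the counting is not given, the Got2 level is uncertain to that extent.

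The remaining genes of the exchange were Mdh1, the cytosolic malate dehydrogenase, and Glud1, the mitochondrial glutamate dehydrogenase that turns glutamate into 2-oxoglutarate. Glud1 had 14929, 12393 and 13197 after saline and 11941, 11110.5 and 10465 after bleomycin, all bleomycin values lying below all saline values, but its log2 difference of -0.27 ± 0.12 did not pass (SE; adjusted p = 0.182, limma). Mdh1 differed by -0.05 ± 0.15 with overlapping groups. Among 37 levels per kilobase of exon, Glud1 was the second highest in saline libraries and the third in bleomycin libraries, whereas Got1 moved from place 28 to place 17.

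**Figure D3:**
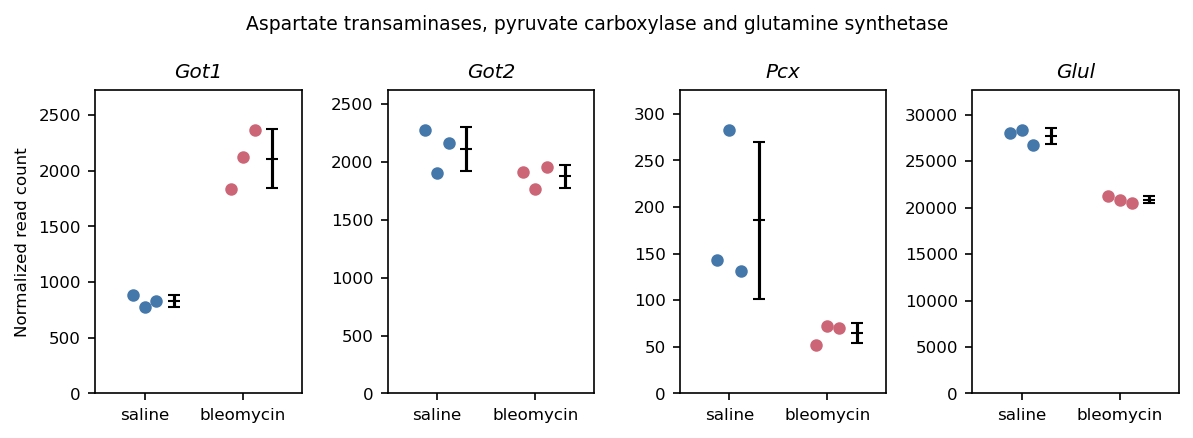
Normalized read counts (y axes, starting at 0) of Got1, Got2, Pcx and Glul in the saline and bleomycin libraries, 1 point per library from left to right in replicate order, with bars for the mean and SD of 3. Got1 is higher in every bleomycin library, Got2 overlaps, and Pcx and Glul are lower in every bleomycin library.

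Entry of pyruvate showed no called change. The mitochondrial pyruvate carrier subunits Mpc1 and Mpc2 had log2 differences of 0.18 ± 0.14 and -0.30 ± 0.23 (SE). Mpc2, an obligate partner of Mpc1 in the carrier, varied within both groups, at 1778, 1689 and 2683 after saline and 2211, 1403 and 1385 after bleomycin, so that saline replicate 3 and bleomycin replicate 1 stood above the others. Of the pyruvate dehydrogenase complex, Pdha1, the catalytic E1 alpha subunit, had 1960.1, 1918 and 1799 after saline and 1508, 1551 and 1678 after bleomycin. Its groups did not overlap, with a log2 difference of -0.26 ± 0.11 (SE; 95% interval -0.51 to -0.02) that did not pass after adjustment (adjusted p = 0.165, limma). The E1 beta subunit Pdhb, the E2 acetyltransferase Dlat and the E3 dihydrolipoamide dehydrogenase Dld, which other dehydrogenase complexes share, differed by -0.02 ± 0.15, -0.20 ± 0.12 and -0.06 ± 0.14, each with overlapping groups. Exons of Mpc1 and Pdha1 overlap those of genes on the opposite strand, as do those of Idh3b, Me1, Mdh1, Slc25a10 and Slc25a11, which leaves their levels uncertain.

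The 4 kinases that inactivate the complex did not pass either. Pdk4, the form known for its rise in fasting and with fatty acid use, had 519, 505 and 628 after saline and 443, 505 and 357 after bleomycin, and the groups overlapped through saline replicate 2 (505.2) and bleomycin replicate 2 (505.4). Its log2 difference was -0.35 ± 0.17 (SE; 95% interval -0.74 to 0.05; adjusted p = 0.258, limma). Pdk1, a known target of the hypoxia factor HIF-1, had 934, 774 and 751 after saline and 817, 871 and 1002 after bleomycin, with saline replicate 1 and bleomycin replicate 5 the highest. For Pdk2, the broadly expressed form, the values were 812, 607 and 628 after saline and 747, 686 and 786 after bleomycin, again overlapping. Pdk3 had 1056, 957 and 983 after saline and 932, 989 and 948 after bleomycin, the tightest of the 4 around a common level. The log2 differences of Pdk1, Pdk2 and Pdk3 were 0.13 ± 0.14, 0.13 ± 0.15 and -0.06 ± 0.11 (SE). Per kilobase of exon, Pdk3 made up 45.0% ± 1.11 of the family in saline and 44.1% ± 0.74 in bleomycin libraries (SD, n = 3 each), and was the largest share in every library. Pdk4 made up 18.1% ± 2.56 and 14.6% ± 2.44, Pdk2 24.8% ± 2.31 and 27.6% ± 2.13, and Pdk1 12.1% ± 0.80 and 13.6% ± 1.36, so the makeup of the family moved by under 4 points.

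**Figure D4:**
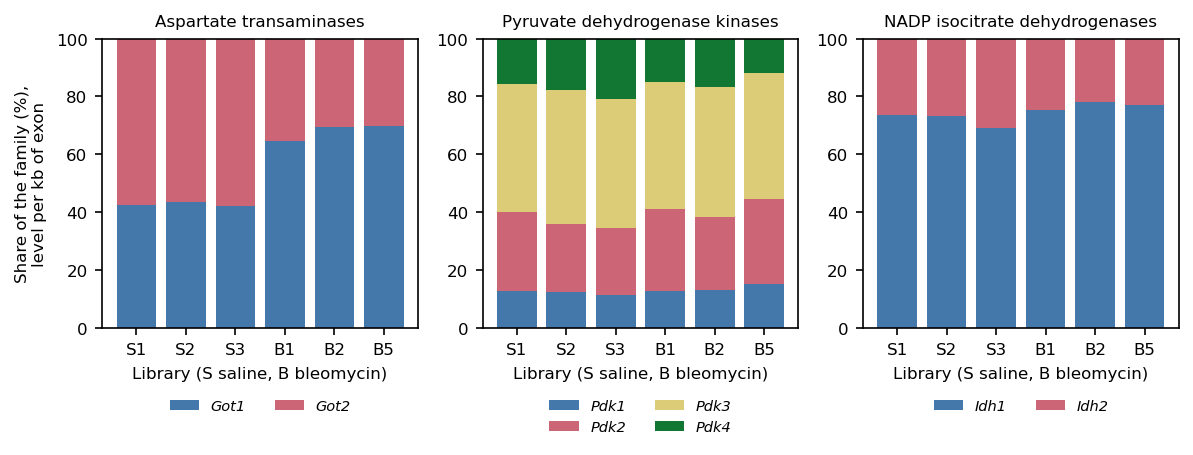
Share of each isozyme in the summed level of its family per kilobase of exon (y axes, percent) in each library (x axes, S saline and B bleomycin with the replicate number). The Got1 share rises from 42.7% to 67.9% on average, while the kinase shares move by under 4 points and the Idh1 share goes from 72.0% to 76.8%.

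The first span of the cycle, from citrate to succinyl-CoA, leaned lower without passing. Citrate synthase, Cs, which condenses acetyl-CoA with oxaloacetate, had 6979, 7822 and 7289 after saline and 6285, 6251 and 6004 after bleomycin. Every bleomycin library was below every saline library, by a log2 difference whose 95% interval was -0.48 to -0.02. Of the NAD-linked isocitrate dehydrogenase, the catalytic subunit Idh3a differed by -0.26 ± 0.11 (SE; adjusted p = 0.191, limma), Idh3g by -0.19 ± 0.10 and Idh3b by 0.01 ± 0.10. The 2-oxoglutarate dehydrogenase Ogdh and its succinyltransferase Dlst differed by -0.19 ± 0.12 and -0.18 ± 0.11. In this span 5 of 6 genes had a log2 difference below 0, against 51.3% of all genes tested. For 4 (Cs, Idh3a, Idh3g and Dlst) the groups did not overlap, where 13.6% of all genes tested separated as lower.

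Succinyl-CoA ligase, which makes nucleoside triphosphate in the cycle, has a common alpha subunit, Suclg1, and a GDP-forming (Suclg2) or ADP-forming (Sucla2) beta subunit. Suclg1 had 1698, 1849 and 2090.2 after saline and 1819.9, 1687 and 1546 after bleomycin, with a log2 difference of -0.16 ± 0.12 and overlapping groups. Suclg2 and Sucla2 differed by -0.14 ± 0.13 and -0.02 ± 0.12 (SE). Sucla2 held 73.5% ± 2.03 of the beta subunit level per kilobase of exon in saline and 75.0% ± 3.26 in bleomycin libraries (SD, n = 3 each).

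The span from succinate to oxaloacetate held differences in both directions. Succinate dehydrogenase is also complex II of the respiratory chain, with Sdha and Sdhb as its catalytic subunits and Sdhc and Sdhd as its membrane anchors. Sdhb was higher in every bleomycin library, at 2931, 3560.4 and 3769 after saline and 4831, 3769.8 and 3841 after bleomycin. The margin between saline replicate 3 and bleomycin replicate 2 was under 1 normalized count, and the log2 difference of 0.28 ± 0.14 did not pass (SE; 95% interval -0.05 to 0.60; adjusted p = 0.279, limma). Sdha, Sdhc and Sdhd differed by -0.03 ± 0.10, 0.00 ± 0.17 and 0.07 ± 0.15. Bleomycin replicate 1 was the highest of all 6 libraries for Sdhb, Sdhc and Sdhd, and without it Sdhc and Sdhd changed sign, to -0.18 and -0.08. Fumarate hydratase, Fh1, had 1529, 1741 and 1841 after saline and 1488, 1344 and 1222 after bleomycin. Its groups did not overlap, and its log2 difference was -0.33 ± 0.13 (SE; 95% interval -0.62 to -0.04; adjusted p = 0.136, limma). The mitochondrial malate dehydrogenase Mdh2 differed by -0.27 ± 0.14, again with saline replicate 3 and bleomycin replicate 1 the highest of their groups.

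The NADP-linked enzymes at the edge of the cycle comprise the cytosolic and mitochondrial isocitrate dehydrogenases Idh1 and Idh2 and the malic enzymes Me1 and Me2. Me1 is cytosolic and depends on NADP, while the mitochondrial Me2 mainly uses NAD and can also use NADP. Me2 had the smallest p of these NADP-linked enzymes, at 4651, 3778 and 4457 after saline and 3742, 3202 and 3223 after bleomycin. The groups were separated by a small margin, between saline replicate 2 and bleomycin replicate 1, and the log2 difference was -0.34 ± 0.12 (SE; 95% interval -0.62 to -0.06; adjusted p = 0.119, limma). Idh2 had 3145, 3149 and 3776 after saline and 3157, 2470.0 and 2452 after bleomycin, in which bleomycin replicate 1 lay among the saline values and the other bleomycin libraries below them. Its log2 difference of -0.32 ± 0.14 (adjusted p = 0.186, limma) became -0.44 without bleomycin replicate 1, and passed there (adjusted p = 0.0464). With both saline replicate 2 and bleomycin replicate 1 left out, a choice made after the data were seen, Idh2 and Me2 passed as lower, at -0.49 and -0.50 (adjusted p = 0.0411 and 0.0179, limma). Idh1 differed by 0.05 ± 0.10 and had the highest level per kilobase of exon of the 37 genes in both groups. Me1 had the lowest in both groups, ranging from 76.5 to 173 normalized counts in saline and from 102 to 116 in bleomycin libraries.

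The carriers of the list move cycle intermediates across the inner membrane: Slc25a1 exports citrate, Slc25a10 exchanges dicarboxylates for phosphate, and Slc25a11 exchanges 2-oxoglutarate for malate in the malate-aspartate shuttle. Slc25a10 had 619.7, 582 and 761 after saline and 572, 526 and 541 after bleomycin. It was lower in every bleomycin library, with a log2 difference of -0.25 ± 0.14 that did not pass (SE; adjusted p = 0.335, limma). Slc25a1 and Slc25a11 differed by 0.04 ± 0.10 and -0.17 ± 0.12, with overlapping groups.

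Acod1, the enzyme that decarboxylates cis-aconitate to itaconate in activated macrophages (chromosome 14, 103046977 to 103056573, GRCm38), had the widest interval of the 37. It had 127, 1953 and 336 after saline and 459, 759 and 896 after bleomycin. Saline replicate 2 was the highest of all 6 libraries and saline replicates 1 and 3 the lowest, so the groups overlapped, and the log2 difference of 0.63 ± 0.82 (SE; 95% interval -1.246 to 2.505) did not pass (adjusted p = 0.712, limma). The call turned on that 1 library: without saline replicate 2 the difference was 1.71 and passed (adjusted p = 0.0491), and without both it and bleomycin replicate 1 it was 1.99 (adjusted p = 0.0147). The direction also turned, to -0.26 without saline replicate 1, -0.21 by edgeR and -0.19 by DESeq2, none of which passed.

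Neutrophil and activation genes varied among the saline libraries too, in more than 1 pattern. Saline replicate 2 was far above the other saline libraries for 3 neutrophil-associated genes, S100a9 at 4.90, 503 and 7.42, Lcn2 at 14.7, 319 and 8.48, and Mmp9 at 3.92, 88.0 and 3.18. It was the lowest of them for the neutrophil receptor gene Cxcr2, at 264, 179 and 334, and for the neutrophil collagenase gene Mmp8, at 1088, 998 and 1536, and between the others for Il1r2, at 86.3, 93.4 and 118. After bleomycin S100a9 had 20.7, 56.0 and 37.1 and Lcn2 62.9, 51.6 and 54.3, all below saline replicate 2. For Il1b and Tnf, which encode the inflammatory cytokines interleukin-1 beta and tumour necrosis factor, saline replicate 1 stood below the others, with Il1b at 3209, 18252 and 12425 and Tnf at 4045, 22870.2 and 16664. Whether neutrophils or activation bear on the Acod1 value of that library was not tested. Of 6 tested activation genes often measured beside Acod1, 2 passed as higher, where 9.76% of all genes tested passed that way. Among the 6, exons of Irf1, Il1b and Cxcl10 overlap those of genes on the opposite strand, which leaves their levels uncertain. Ptgs2, the inducible cyclooxygenase, had 34.3, 279 and 90.1 after saline and 546, 2505 and 2466 after bleomycin, a log2 difference of 3.96 ± 0.79 (SE; adjusted p = 0.0115, limma). The interferon-responsive transcription factor Irf1 had 1439, 985 and 2057 after saline and 3010.2, 3053 and 3268 after bleomycin, a log2 difference of 1.12 ± 0.23 (adjusted p = 0.0142, limma), which was lost with no intensity trend and without bleomycin replicate 5 (adjusted p = 0.0562, the highest over its alternatives). Il1b, Tnf, Il6 and Cxcl10 did not pass. Il6 came closest, at 1.96 ± 0.58 (adjusted p = 0.0580, limma), and passed in 5 of 18 other settings, among them DESeq2 and the fit without saline replicate 2 (adjusted p = 0.00967 and 0.00965). Tnf differed by -0.21 ± 0.54, but with saline replicate 1 left out it was called lower at -0.97 (adjusted p = 0.00837, limma), and Il1b, at 0.84 ± 0.58, passed in 1 of 18.

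**Figure D5:**
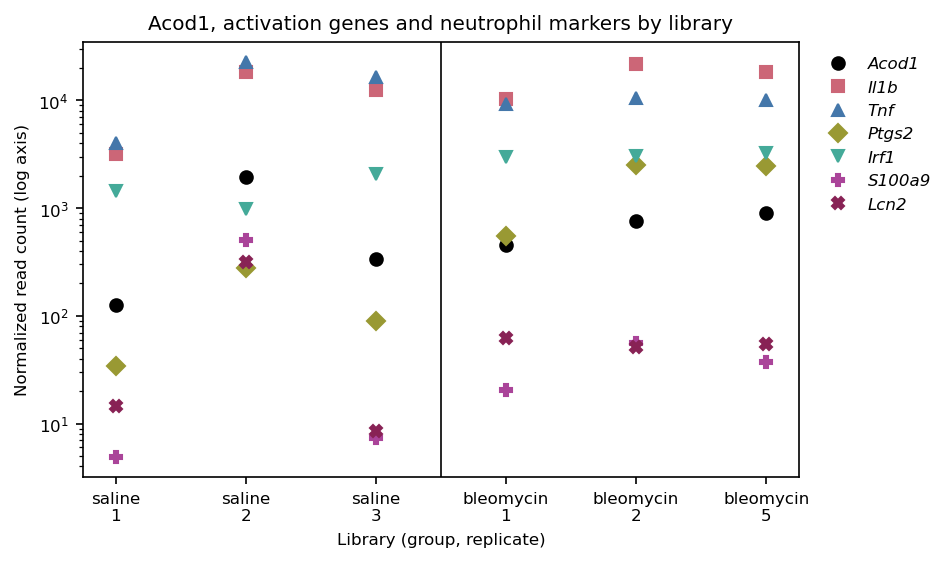
Normalized read counts (log axis) of Acod1, 4 activation genes and the neutrophil-associated S100a9 and Lcn2 in each of the 6 libraries (x axis). Saline replicate 2 has the highest Acod1, Tnf, S100a9 and Lcn2 values of all libraries, whereas Ptgs2 and Irf1 are highest in bleomycin libraries.

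Further genes of the pathway were read from the same fit, 41 in 3 lists: assembly factors and phosphatases of pyruvate dehydrogenase, other cycle enzymes with their assembly factors, and genes of anaplerosis, cataplerosis and glutamine. Of the 37 that were tested, 0 passed as higher and 2 as lower (limma; 3 higher and 3 lower at an unadjusted p under 0.05; 2 called by edgeR and 4 by DESeq2), and the median log2 difference was 0.05. Over all genes tested 9.76% passed as higher and 3.9% as lower by limma. So 2 of 37 lower is close to the background share, and 0 of 37 higher is below it. Ogdhl, Dhtkd1, Pck1 and Me3 were too low to test. Both called genes belonged to the third list, of which 18 were tested, and the 9 and 10 tested genes of the other lists held 0 calls.

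Pcx, pyruvate carboxylase, which refills oxaloacetate from pyruvate, fell after bleomycin (chromosome 19, 4510472 to 4621752). It had 143, 282 and 132 after saline and 52.1, 72.5 and 69.8 after bleomycin. All bleomycin values were below all saline values, and saline replicate 2 was the highest of the 6, at about the sum of the other saline libraries. The log2 difference was -1.43 ± 0.32 (SE; 95% interval -2.16 to -0.70; adjusted p = 0.0200, limma), a 2.70-fold fall, and it did not pass without bleomycin replicate 5 (adjusted p = 0.0579, the highest over its alternatives, whose lowest was 0.000299). Glul, glutamine synthetase, which makes glutamine from glutamate, fell as well (chromosome 1, 153899944 to 153909723). Its values were 28084, 28354 and 26744 after saline and 21262, 20792 and 20546 after bleomycin, with tight and separate groups. The log2 difference of -0.41 ± 0.10 (SE; 95% interval -0.64 to -0.18; adjusted p = 0.0315, limma), a 1.33-fold fall, kept its size when any 1 library was left out (-0.44 to -0.39). The call held in 8 of 18 other settings. It was lost with no filter, quantile normalization and no intensity trend (adjusted p = 0.0624, 0.0532 and 0.0648), and without any 1 of saline replicates 1, 2 and 3 (adjusted p = 0.0745, 0.0811 and 0.0607) and bleomycin replicates 2 and 5 (0.143 and 0.157). Glul exons overlap those of Mir8114 on the same strand and Teddm2 on the opposite one, so its level is uncertain to that extent.

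Of the tested genes next in order of p, Slc25a18, a mitochondrial glutamate carrier, came closest, at 36.3, 15.2 and 11.7 after saline and 37.7, 82.4 and 86.2 after bleomycin. Its groups were separated by a small margin, and its log2 difference was 1.73 ± 0.50 (SE; adjusted p = 0.0529, limma); it passed in 6 of 17 other settings. Its exons overlap those of Atp6v1e1 on the opposite strand. Pccb, a subunit of propionyl-CoA carboxylase, had 1049, 948 and 1119.9 after saline and 1364, 1265 and 1449.8 after bleomycin, a log2 difference of 0.39 ± 0.12 (adjusted p = 0.0715, limma). Gls2, the liver-type glutaminase, did not pass either, with a log2 difference of 1.47 ± 0.64, and its exons overlap those of Spryd4 on the opposite strand. The citrate lyase Acly, which makes cytosolic acetyl-CoA, differed by -0.12 ± 0.13 with overlapping groups.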

How the data were processed

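Total RNA of adherent lavage cells was sequenced in 6 libraries, 3 per group, grouped by the treatment in the labels. The tools named, per the submitters' processing notes, are STAR 2.5.2b, HTSeq 0.6.0, bcl2fastq 2.18.0.12 and DESeq2, with build mm10; what each did, the annotation, strand setting and filters are not given in the sources consulted. The authors deposited a normalized signal per gene. In each library every value above 0 (100%) was a whole number of steps of 1 size (within 0.05 of a step), 1 step being 1 read, which recovers 27654799 to 37147983 reads per library, so 3 reads are worth 2.59 to 3.30 normalized counts; genes near that level are imprecise.

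The 13512 genes reaching 10 normalized counts in 3 or more libraries were tested with limma 3.58.1 (R 4.3.3), two-sided with an intensity trend, on log2(value + 1) with a pseudocount of 1, with Benjamini-Hochberg adjustment over all of them; this scale understates changes of low genes. The code was tested on simulated data. edgeR 4.0.16 and DESeq2 1.42.0 on recovered reads, other pseudocounts, filters, scalings and variance settings, a replicate block and libraries left out were alternatives. Positions, lengths and overlaps came from GENCODE M21 (GRCm38), promoters from RefSeq. Shares per kilobase are descriptions with no test.

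The members and lists were chosen with earlier results of these data known. Values in every library are given for called members, the member with the smallest p in each role, Acod1, Cs and the kinases, and for the other pathway genes in order of p plus Pcx and Acly, apart from some results that are not reported here. Values of Got2, Glud1, Idh2, Sdhb, Il1b, Tnf, Il6, S100a9, Lcn2, Mmp9, Cxcr2, Mmp8 and Il1r2 were added after they were seen.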

Additional observations from a re-analysis of the deposited data

How the results depend on the processing

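Of 880 log2 differences recomputed under the alternatives (the 37 members, Pcx, Glul, Acly, Slc25a18, Pccb, Gls2 and the 6 activation genes tested), 812 kept their direction and their side of the threshold, 36 (of 16 genes) changed sign, 19 (of 8) newly passed and 13 (of 3, Pcx, Glul and Irf1) no longer passed; Got1 was higher and passed in all 18. The count of members called higher was 1 to 2 and that called lower 0 to 1 over the fits that leave out 1 library, and each was 2 without both saline replicate 2 and bleomycin replicate 1, a setting chosen after the data were seen. Of the other pathway genes 0 to 2 were called higher and 0 to 2 lower with 1 library left out. Those called higher were 1 with a pseudocount of 5, TMM rescaling or both libraries left out, and 2 by DESeq2; those called lower were 1 with no filter, no intensity trend, the replicate block or both libraries left out. In each of these counts the cause was not tested.

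Genes near 0, Acod1, Tnf, Cxcl10 and, with the replicate block, Mpc2 (-0.30 without it) changed sign. None of these reversed values passed the threshold (limma unless named). With 1 library left out the log2 differences were -0.17 to 0.064 for Pdhb, -0.17 to 0.010 for Dld, -0.026 to 0.042 for Idh3b, -0.11 to 0.068 for Sucla2, -0.18 to 0.095 for Sdhc, -0.079 to 0.17 for Sdhd, -0.016 to 0.096 for Idh1, -0.31 to 0.27 for Me1, -0.20 to 0.039 for Mdh1, -0.012 to 0.068 for Slc25a1, -0.26 to 1.71 for Acod1, -0.97 to 0.28 for Tnf and -0.20 to 0.98 for Cxcl10. Without both libraries they were -0.16 for Sdhc, -0.10 for Sdhd, -0.014 for Idh1, 0.31 for Me1 and 0.32 for Tnf, with quantile normalization 0.029 for Sdha and -0.012 for Sdhc, and for Acod1 -0.21 by edgeR and -0.19 by DESeq2. Quantile normalization moved the median of all tested genes to -0.10 and that of the members to -0.16.

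Replicate numbers 1 and 2 occur in both groups but nothing in the labels ties them. The deviations of same-numbered libraries correlated at -0.20 and 0.02, and those of differently numbered ones at -0.17 to 0.23. With only 2 same-numbered pairs, these values cannot show whether such libraries share more than a number. With the replicate number as a replicate block, saline replicate 3 and bleomycin replicate 5 had no partner. The differences of that fit therefore rest on replicates 1 and 2 of each group alone. In it Got1, Il6 (1.51) and Il1b (0.97, adjusted p = 0.0334, limma) passed and Glul did not (-0.42, adjusted p = 0.548, limma). The values were 0.023 for Mpc2, 0.13 for Pdhb, 0.079 for Dld, -0.011 for Pdk1, 0.13 for Mdh1 and 0.043 for Tnf. The length used set the shares: Pdk3 had 33.0% and 31.8% (saline and bleomycin) per coding length and 43.3% and 41.9% per longest transcript, and Got1 29.0% and 53.7%, and 32.5% and 57.8%. Per coding length Pdk1 was above Pdk3 in bleomycin replicate 5 (31.2% against 30.9%), so Pdk3 was not the largest share there. Depth limits the low genes, such as Me1 and Gls2.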
